A study of Mus musculus with 40 samples.

Results

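The 10 tubular injury and repair genes were Havcr1, Lcn2, Spp1, Krt8, Krt18, Krt20, Clu, Vcam1, Sox9 and Cdkn1a. They were taken by symbol, for what is known of them in injured kidney tubules, and with earlier results of these data known. The source was the 55359 Ensembl mouse gene identifiers counted in each library. All 10 matched 1 identifier, and all 10 passed the filter on low counts, which kept 17345 genes. Bulk RNA sequencing had been done on the right kidney of 40 male C57BL/6 mice, 1 library per mouse, in 8 groups of 5. The vehicle group received sesame oil, and 7 groups received TCDD (2,3,7,8-tetrachlorodibenzo-p-dioxin) at 0.03, 0.1, 0.3, 1, 3, 10 or 30 µg/kg. Each mouse was gavaged every 4 days for 28 days, 7 times in all, from 30 to 58 days of age, and about 100 mg of frozen tissue was used. The labels do not say which part of the kidney each piece came from. Replicate numbers below only name the libraries of a group.

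Kidney tubule cells that are damaged lose part of their transport machinery, change their cytoskeleton and secrete or shed proteins that are used in urine as injury markers. Surviving cells then spread, divide and rebuild the epithelium, and cells that fail to complete this repair keep an arrested, inflammatory transcript profile. TCDD is a long-lived ligand of the aryl hydrocarbon receptor, a transcription factor that binds DNA elements with the core GCGTG and drives genes of foreign-compound metabolism such as Cyp1a1.

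Gene counts summed to 15278423 to 25575317 per library, and mitochondrial genes held 7.31 to 11.3% of them. The labelled tissue had its markers: all 14 proximal tubule genes listed were measured and summed to between 35517 and 46365 CPM (gene counts scaled by library size) in the vehicle group. Cyp1a1, the check of exposure, averaged 2.37 CPM ± 1.25 (SD, n = 5) without TCDD and 2537 ± 436 with 30 µg/kg.

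At the top dose 6 of the 10 genes changed. Cdkn1a, Lcn2, Krt18, Vcam1 and Spp1 rose, and Clu fell, by edgeR's quasi-likelihood test with an adjusted p below 0.05 over all genes tested. Of all genes, 15.9% were called at 30 µg/kg, 8.39% higher and 7.55% lower. The median log2 fold change of the 10 genes there was 0.69, beside 0.01 over all genes. The 10 were chosen with earlier results of these data known, so these comparisons with all genes are descriptions and not an independent test. Havcr1, Krt8, Krt20 and Sox9 did not pass, and Havcr1, the gene of the urinary marker KIM-1, had the lowest fitted value of the 10, −0.63.

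Fewer genes passed at the doses below. At 10 µg/kg Cdkn1a and Vcam1 rose, 2 of the 10, beside 4.82% of all genes (3.82% higher and 0.997% lower). At 3 µg/kg none of the 10 was called, beside 1.09% of all genes (1.03% higher and 0.0634% lower), although 2 had an unadjusted p under 0.05, and DESeq2 called both, Vcam1 and Cdkn1a. At 1 µg/kg Vcam1 alone of the 10 rose, beside 0.513% of all genes (0.507% higher). None of the 10 was called at 0.3 µg/kg (0.00577% of all genes), 0.1 µg/kg (0%) or 0.03 µg/kg (0%), by edgeR or by DESeq2. At an unadjusted p under 0.05 edgeR counted 1, 0 and 0 of them at those doses. All 7 dose comparisons share the vehicle libraries and so are not independent of each other. Along the rank of dose, from 0 for vehicle to 7, the 6 genes and Krt20 had a slope that passed the test, 7 of 10 (6 rising and Clu falling) beside 19.8% of all genes (11.0% rising and 8.84% falling).

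**Figure D1:**
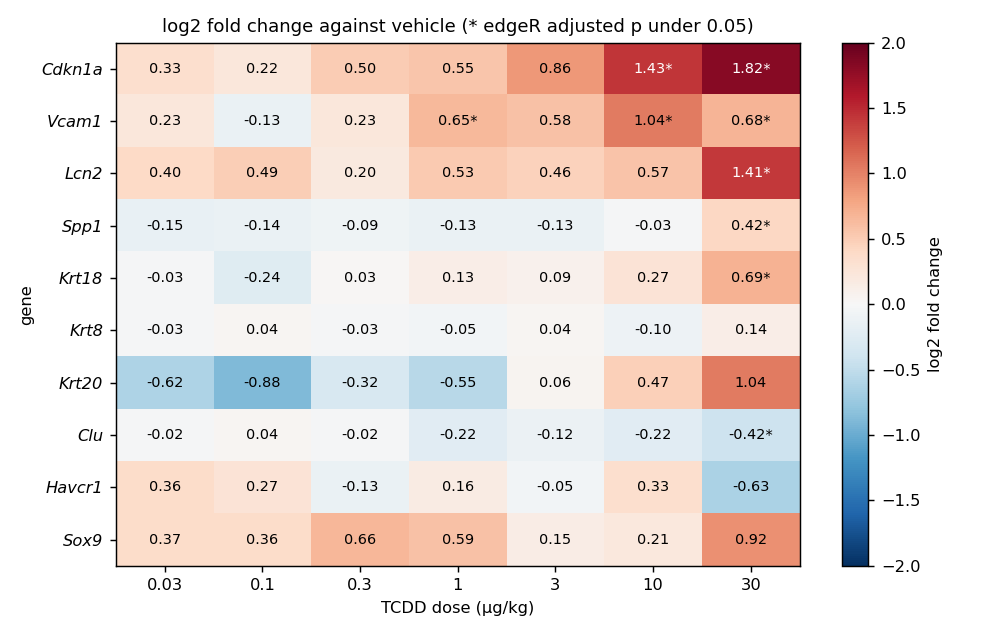
Fitted log2 fold change against vehicle (colour and printed value) of each gene (rows) at each TCDD dose in µg/kg (columns), 5 libraries per group. Asterisks mark an edgeR adjusted p under 0.05. Asterisks stand at 1 µg/kg for Vcam1, at 10 µg/kg for Vcam1 and Cdkn1a, and at 30 µg/kg for 6 genes, of which Clu was lower.

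Cdkn1a encodes p21, an inhibitor of cyclin-dependent kinases that halts the cell cycle after damage and is a classic target of p53. It had the largest fold of the 10 at the top dose. In vehicle its levels were 6.97, 10.8, 8.51, 12.3 and 10.5 CPM in replicates 1 to 5. At 10 µg/kg they were 21.0, 36.2, 21.5, 24.3 and 28.8 CPM, and at 30 µg/kg 23.2, 21.7, 50.4, 35.3 and 42.4 CPM. Every library of those 2 doses was above every vehicle library, a separation seen upward for 3.59% and downward for 2.83% of all genes at 30 µg/kg. That share was computed for 30 µg/kg against vehicle only. On the log2 scale Cdkn1a was higher by 1.43 ± 0.23 (SE) at 10 µg/kg, with an edgeR adjusted p of 3.87e-05. At 30 µg/kg it was higher by 1.82 ± 0.23, or 3.53-fold (adjusted p = 4.74e-07 by edgeR).

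At 3 µg/kg, where the share of all genes so separated was not computed, Cdkn1a was above all vehicle libraries in 5 of 5 mice. Its levels there were 16.7, 16.1, 16.1, 23.5 and 16.4 CPM. That difference, 0.86 ± 0.23 on the log2 scale, did not pass the edgeR test over all genes (adjusted p = 0.0548). It passed without robust estimation (adjusted p = 0.0343), in a fit of the 2 groups alone (0.00743), in DESeq2 (0.00532) and without vehicle replicate 4 (0.0439). The slope over dose rank was 0.24 log2 units per step (edgeR adjusted p = 1.45e-09) and was called with each of the 40 libraries left out in turn. Over the 40 libraries the genes ranked most like Cdkn1a were Peg3, an imprinted zinc finger gene (Spearman rho 0.859), and the receptor's own targets Cyp1b1 (0.843) and Cyp1a1 (0.839). All 40 libraries include the dose groups, so these values describe a shared dependence on dose as well as variation between mice.

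Of 23 tested genes in a list of p53 targets and arrest genes (without Cdkn1a), 2 rose and none fell at 30 µg/kg, a share near the 8.39% of all genes called higher there, and none was called at 10 µg/kg. They were Sesn2, a stress-induced sestrin (log2 fold change 0.99), and Cdkn1b, the related inhibitor p27 (0.34). The median of that list was 0.24 at 30 µg/kg beside 0.01 over all genes, and 9 of the 23 had a rising slope, beside 11.0% of all genes. Sox9, a transcription factor switched on in tubule cells that regenerate, was rare, at 1.21, 1.47, 0.993, 0.0657 and 0.227 CPM in vehicle and 1.14, 1.70, 1.76, 1.24 and 1.83 CPM at 30 µg/kg. The 2 lowest vehicle values stand for 1 and 4 counts. The groups overlapped, and the log2 difference of 0.92 ± 0.41 did not pass (edgeR adjusted p = 0.127). It passed without vehicle replicate 2, the highest vehicle library, at 1.26 (adjusted p = 0.0475).

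Other genes of growth and tubule development moved in both directions. Of 23 tested, 3 rose and 4 fell at 30 µg/kg, beside 8.39% of all genes higher and 7.55% lower. The median of the list was −0.01. Met, the receptor of hepatocyte growth factor, fell by 0.66 on the log2 scale, Pax8, a nephron transcription factor, fell by 0.40, and Egfr, the receptor of epidermal growth factor, fell by 0.35. Myc, a driver of growth, rose by 1.07. At 10 µg/kg 1 rose and 1 fell, beside 3.82% of all genes higher and 0.997% lower.

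RefSeq promoter windows were looked at because the inducer acts through a DNA-binding receptor. The table on build GRCm38.p6 held 7 of the 10 genes with 11 start sites; Clu, Vcam1 and Sox9 are named only. In the 250 bases before the start, the core GCGTG, searched on both strands, occurred in 28.2% of 32851 windows of all genes and in 2 of the 11 windows of these genes. One is the second Cdkn1a start site, on chromosome 17, with the core 206 bases upstream. Both Cdkn1a windows, on the plus strand, are printed 5′ to 3′ with the core in capitals, since this gene had the largest fold.
Cdkn1a window 1, chr17:29090729-29090978: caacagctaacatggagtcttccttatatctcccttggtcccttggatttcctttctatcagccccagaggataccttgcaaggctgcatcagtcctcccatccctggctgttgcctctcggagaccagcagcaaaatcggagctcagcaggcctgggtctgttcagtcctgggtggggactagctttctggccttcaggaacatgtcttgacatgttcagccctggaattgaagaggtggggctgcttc
Cdkn1a window 2, chr17:29093519-29093768: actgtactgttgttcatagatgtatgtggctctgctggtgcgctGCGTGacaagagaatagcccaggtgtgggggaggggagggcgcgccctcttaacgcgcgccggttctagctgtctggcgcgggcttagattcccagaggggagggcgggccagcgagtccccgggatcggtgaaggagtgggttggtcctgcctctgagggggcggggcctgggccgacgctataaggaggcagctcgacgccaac
A match of these 5 letters is a description of the sequence, not evidence of binding.

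Lcn2 encodes lipocalin 2 (NGAL), which binds iron-carrying siderophores and is secreted by injured distal tubules and by neutrophils. Its vehicle levels were 1.33, 0.861, 2.72, 2.17 and 1.70 CPM. At 30 µg/kg they were 1.82, 2.60, 6.17, 6.79 and 5.96 CPM in replicates 1 to 5. Replicates 3, 4 and 5 were above all vehicle libraries, and replicates 1 and 2 lay within the vehicle range. Lcn2 was higher by 1.41 ± 0.32 on the log2 scale (edgeR adjusted p = 0.00119), and by between 1.23 and 1.63 with each library of the 2 groups left out. At 10 µg/kg it was 0.57 (adjusted p = 0.395). Of the genes called, Lcn2 had the lowest rho with its closest genes over the 40 libraries. They were Sbsn (0.607), Il17rc, a subunit of the interleukin-17 receptor (0.605), and Spint1 (0.592). Lcn2 counts were low, from 17 in a vehicle library to 156 in a top-dose library, and the part of counting noise in these rho values was not tested.

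The same top-dose libraries differed in other measures. Replicates 3, 4 and 5 also held the highest Cdkn1a and the lowest Clu of their group. Their summed proximal tubule markers were 21489, 19542 and 18988 CPM, against 35363 in replicate 1 and 32205 in replicate 2. Much of that gap was in 1 gene, Kap, an abundant androgen-dependent kidney transcript, at 15208, 8211, 1038, 3631 and 4351 CPM in replicates 1 to 5 and at 9693 to 22482 CPM in vehicle. The other 13 markers summed to 20155, 23994, 20451, 15912 and 14637 CPM in replicates 1 to 5, and to 23883 to 26335 CPM in vehicle. Without Kap, replicate 3 was thus level with replicate 1. Of the 14 proximal tubule markers, 8 fell and 1 rose at 30 µg/kg, beside 7.55% and 8.39% of all genes. Slc34a1, a phosphate transporter, was at −0.55 and Slc22a6, an organic anion transporter, at −0.81, while Cubn, the endocytic receptor cubilin, rose by 0.54. The other 5, Lrp2, Aqp1, Slc13a3, Slc5a12 and Slc22a8, did not pass, with values from −0.07 to 0.39. In bulk tissue fewer cells of a type and less RNA per cell cannot be told apart, and the part of this shift in the levels of Lcn2, Clu or Cdkn1a was not tested. Within dose groups Cdkn1a and the mean log2 CPM of the 14 markers, Kap included, had r = −0.54 and rho = −0.55 over 40 libraries (permutation p = 0.0044 and 0.0015), with r = −0.55 without the 2 farthest libraries. Adjusted over 90 such relations, the permutation p was 0.18 for r and 0.068 for rho.

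Transcripts of neutrophils, another source of Lcn2, were scarce. Only 4 of 10 neutrophil markers were frequent enough to test, and none was called at 30 µg/kg by edgeR (for S100a9, the lowest p, adjusted p = 0.0567 and log2 difference 2.00). Along dose rank 2 of the 4 rose, beside 11.0% of all genes with a rising slope. They were S100a9, by 0.33 log2 units per step (edgeR adjusted p = 0.00126), and Csf3r, by 0.19 (adjusted p = 0.00157). Both genes were rare, with vehicle means of 0.211 CPM for S100a9 and 1.13 CPM for Csf3r. The summed level of the list was 1.57 to 2.70 CPM in vehicle (median 2.13) and 1.36 to 5.11 CPM at 30 µg/kg (median 3.55). Ly6g, Mpo and Elane were at 0 in all 5 vehicle libraries, and Ly6g, Mpo and Ngp in all 5 of the top dose. Of 9 tested iron and siderophore partners of Lcn2, 2 rose and 1 fell at 30 µg/kg, beside 8.39% and 7.55% of all genes. Slc40a1, the iron exporter ferroportin, rose by 0.74 on the log2 scale, Ftl1, the ferritin light chain, rose by 0.69, and Bdh2, an enzyme tied to mammalian siderophore synthesis, fell by 0.35. None of the 9 was called at 10 µg/kg.

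Spp1 encodes osteopontin, a secreted ligand of integrins and CD44 made by tubules of the loop and distal nephron and increased in injured tubules. It was the most abundant of the 10 per length, at 386 CPM per kilobase of exon in vehicle. Its levels in vehicle were 728, 716, 624, 549 and 559 CPM, and at 30 µg/kg 761, 850, 980, 785 and 881 CPM. All 5 top-dose libraries were above all vehicle libraries. The log2 difference was 0.42 ± 0.08 (edgeR adjusted p = 8.09e-05), a 1.34-fold difference.

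The rise of Spp1 came at the last step of dose. Group means stayed between 573 and 620 CPM from 0.03 to 10 µg/kg, and every one of these 6 means was below the vehicle mean of 635 CPM ± 84.2 (SD, n = 5). Between 10 and 30 µg/kg, a comparison without vehicle libraries, 2.70% of all genes were called (1.19% higher and 1.52% lower at 30 µg/kg). Spp1 was the only one of the 10 called there, at 0.46 ± 0.08 (edgeR adjusted p = 0.000599). In 5 of 5 libraries at 30 µg/kg it was above all of 10 µg/kg, a separation not counted over all genes. In a fit of those 2 groups alone Spp1 was at 0.47 and did not pass (edgeR adjusted p = 0.106), and 0 of 15693 genes passed there. In the fit to all groups without replicate 1 of the top dose, Lcn2, Krt8 and Krt18 were called too. The slope of Spp1 over dose rank, 0.044 per step (adjusted p = 0.00682), became −0.002 (adjusted p = 0.946) without the top dose. Part of its exons, 18.8% of the bases, is shared with the gene model Gm42793, so reads there could be left uncounted as ambiguous.

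Receptors of osteopontin changed as well. Of 8 tested genes in that list, 5 rose and 1 fell at 30 µg/kg, beside 8.39% and 7.55% of all genes. The median of the list was 0.41. Cd44, a hyaluronan and osteopontin receptor of injured tubules and of leukocytes, went from 1.84 CPM ± 1.24 to 11.8 ± 2.01 (SD, n = 5 each), 2.70 on the log2 scale (edgeR adjusted p = 2.87e-10). It was at 2.49 at 10 µg/kg, where Spp1 was at −0.03. Itgb3 rose by 1.12 and Itga9 by 0.53, and Itgb6, the epithelial partner subunit, fell by 0.53. Over the 40 libraries Spp1 was ranked most like Gc, the vitamin D binding protein (rho 0.798), and Gatm, an enzyme of creatine synthesis (0.789).

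Clu encodes clusterin, a secreted chaperone that is usually raised in damaged tubules. Here it was the 1 member that fell. Vehicle levels were 279, 374, 369, 353 and 311 CPM, and those at 30 µg/kg were 300.0, 290, 195, 234 and 241 CPM. The 3 libraries of replicates 3, 4 and 5 were below all of vehicle, and the other 2 lay within the vehicle range. The log2 difference was −0.42 ± 0.09 (edgeR adjusted p = 0.000659), a drop of 1.34-fold. It was −0.22 at both 1 and 10 µg/kg, where it did not pass (adjusted p = 0.536 and 0.171), and in a fit of vehicle and top dose alone the adjusted p was 0.0535. The slope fell by 0.055 per dose rank (adjusted p = 0.000101) and passed also without the top dose. Its nearest genes by rank were Klk1, a kallikrein of the distal tubule (rho 0.822), Raly (0.802) and Pgam2 (0.770). Collecting duct markers moved the same way: 5 of 7 tested fell at 30 µg/kg and none rose, beside 7.55% of all genes lower. The list summed to 646 to 1142 CPM there, against 917 to 1224 CPM in vehicle. Thick ascending limb markers had 0 of 6 called and thin limb markers 0 of 8. The part of these shifts in the level of Clu was not tested.

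Havcr1 encodes KIM-1, a phosphatidylserine receptor that is scarcely made in healthy proximal tubules and is the most used transcript marker of their injury. It stayed scarce in every group. Vehicle levels were 0.922, 0.355, 1.12, 2.30 and 1.47 CPM, and those at 30 µg/kg were 1.36, 0.566, 0, 0.281 and 1.60 CPM. The groups overlapped, no count passed 46 in any of the 40 libraries, and replicate 3 of the top dose had 0 counts. The log2 difference at 30 µg/kg was −0.63 ± 0.49 (edgeR adjusted p = 0.444), ranging from −1.11 to −0.29 with 1 library left out. Smaller changes were not detectable at these counts. Of its family, Timd2, a relative made in tubules, fell by 0.86 on the log2 scale at 30 µg/kg, and Havcr2, the immune checkpoint receptor TIM-3, rose by 1.64.

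Vcam1 encodes an adhesion molecule for leukocyte integrins, made by activated endothelium and by tubule cells that have failed to repair. It was the member that rose at the lowest dose, and its mean at 30 µg/kg was below that at 10 µg/kg. Vehicle levels were 5.82, 7.09, 6.00, 5.39 and 6.86 CPM. At 1 µg/kg they were 8.55, 11.3, 6.58, 12.3 and 10.3 CPM, with 4 of 5 libraries above all of vehicle. At 10 µg/kg they were 12.4, 13.4, 11.0, 12.4 and 14.8 CPM, and at 30 µg/kg 11.4, 10.4, 8.95, 7.97 and 11.3 CPM. Neither dose overlapped with vehicle, and the share of all genes without overlap was not computed at 10 µg/kg.

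The log2 fold change of Vcam1 was 0.65 ± 0.16 at 1 µg/kg (edgeR adjusted p = 0.0338), 0.58 at 3 µg/kg (adjusted p = 0.0546), 1.04 ± 0.16 at 10 µg/kg (adjusted p = 7.94e-06) and 0.68 ± 0.16 at 30 µg/kg (adjusted p = 0.00157). The call at 1 µg/kg depended on single libraries and on the settings. It was lost without any 1 of vehicle replicates 1, 3 and 4 or of replicates 2, 4 and 5 at that dose, with adjusted p between 0.0041 and 0.209 over the 10 omissions. It was also lost with the counts of 1 strand, column 4 (log2 difference 0.70, edgeR adjusted p = 0.266), and in the 2 groups alone (0.65, adjusted p = 0.154). With a covariate for kidney region, scored from marker genes, it was lost as well (0.62, edgeR adjusted p = 0.0592). At 3 µg/kg Vcam1 was called without replicate 3, the lowest library (adjusted p = 0.00928). The difference between 10 and 30 µg/kg, −0.35 ± 0.15, did not pass (adjusted p = 0.251). Calls at 10 and 30 µg/kg were kept with each library left out.

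Other cytokine-responsive and adhesion genes rose as well. Of 17 tested in that list, 1 rose at 1 µg/kg, 1 at 3 µg/kg, 5 at 10 µg/kg and 10 at 30 µg/kg. None fell at these doses. Of all genes, 0.507%, 1.03%, 3.82% and 8.39% were called higher at the same doses. Complement C3 had a log2 fold change of 2.58 at 30 µg/kg, ceruloplasmin (Cp) of 1.57, the integrin subunit Itgb7 of 1.67 and Birc3, an inhibitor of apoptosis, of 0.74. At 10 µg/kg, where Vcam1 had its highest mean, C3 was at 0.55 (edgeR adjusted p = 0.56). The median of the list was 0.65 at 30 µg/kg, beside 0.01 over all genes. Over the 40 libraries Vcam1 was ranked most like Osmr, the oncostatin M receptor (rho 0.829), Srgn, a granule proteoglycan of blood cells (0.822), and Ms4a6b (0.822).

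Endothelium and macrophages can also make Vcam1. At 1 µg/kg, the lowest dose with a Vcam1 call, 0 of 10 endothelial and 2 of 11 macrophage markers rose, beside 0.507% of all genes. The median log2 fold change there was −0.00 for the endothelial list, 0.69 for the macrophage list and 0.01 over all genes. At 3 µg/kg, where Vcam1 was not called by edgeR, 2 endothelial and 5 macrophage markers rose, beside 1.03% of all genes. Of the endothelial markers, 7 rose at 10 µg/kg and 6 at 30 µg/kg, with Emcn at 0.74 and Cdh5 at 0.65 at the top dose. In vehicle their sum was 679 to 813 CPM, against 901 to 989 CPM at 10 µg/kg and 912 to 1049 CPM at 30 µg/kg. Of the macrophage markers, 7 rose at 10 µg/kg and 9 at 30 µg/kg, among them C1qb at 1.35 and Adgre1 at 1.44. Of all genes, 3.82% were called higher at 10 µg/kg and 8.39% at 30 µg/kg. The macrophage sum was 97.3 to 157 CPM without TCDD, 219 to 269 CPM at 10 µg/kg and 197 to 256 CPM at 30 µg/kg. Of 7 tested fibroblast markers, 3 rose at 30 µg/kg, where their sum was 345 to 624 CPM against 306 to 437 CPM in vehicle. Within dose groups, r of Vcam1 was 0.41 with the mean log2 CPM of macrophage markers, 0.39 with fibroblast and 0.11 with endothelial markers. The permutation p was 0.042, 0.027 and 0.59, and adjusted over 90 such relations 0.33, 0.32 and 0.85. Whether Vcam1 came from these cells or from tubules was not tested.

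**Figure D2:**
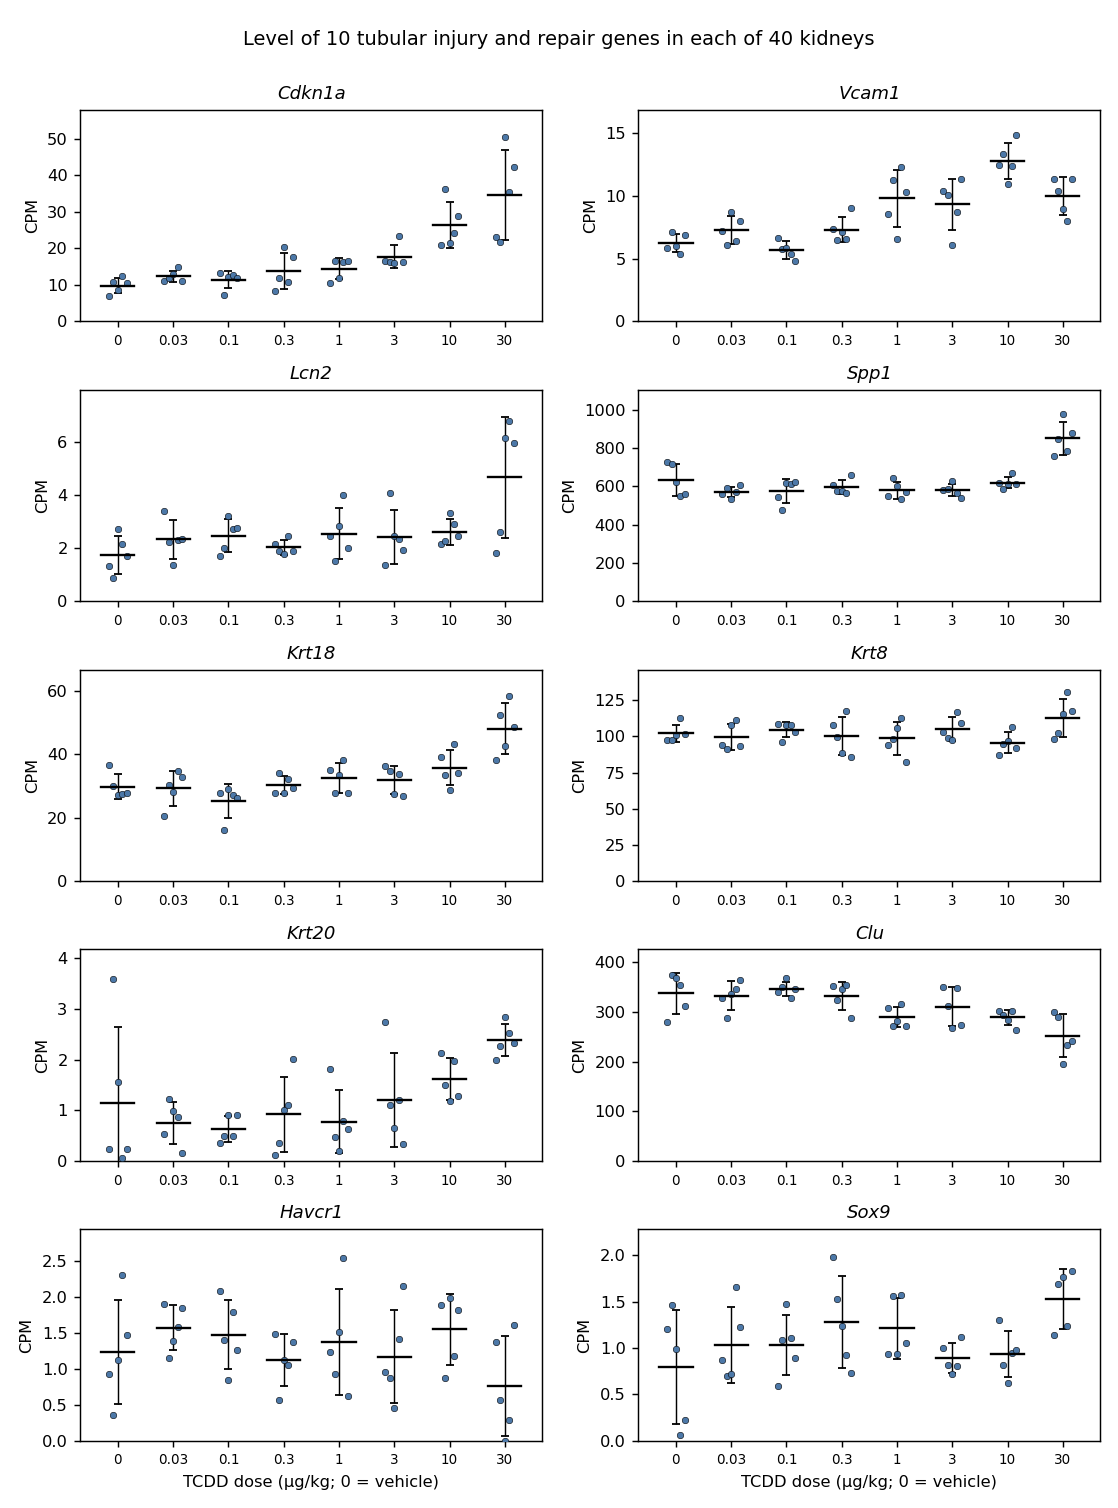
Level in CPM (vertical axes, starting at 0) of each of the 10 genes in every kidney by TCDD dose in µg/kg (horizontal axes, 0 is vehicle). Points are libraries, horizontal lines the mean of 5 and bars ± 1 SD, cut at 0. Cdkn1a is above all vehicle libraries from 3 µg/kg on, Spp1 only at 30 µg/kg, Vcam1 has its highest mean at 10 µg/kg, and Lcn2 at 30 µg/kg holds 3 high and 2 low libraries.

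Krt8 and Krt18 encode the type II and type I keratins that pair in simple epithelia and are raised together in stressed tubules. Here Krt18 passed the test and Krt8 did not. Krt18 levels were 36.6, 30.1, 27.0, 27.5 and 27.9 CPM in vehicle and 38.3, 52.5, 42.5, 58.6 and 48.5 CPM at 30 µg/kg, with no overlap. Its log2 difference was 0.69 ± 0.14 with an edgeR adjusted p of 0.000396, and that at 10 µg/kg was 0.27 (adjusted p = 0.350). Krt8 levels were 97.4, 97.6, 101, 112 and 102 CPM in vehicle and 97.9, 102, 115, 131 and 118 CPM at 30 µg/kg, which overlapped, with a log2 difference of 0.14 ± 0.08 (adjusted p = 0.269).

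The ratio of the pair was compared within each library, a test chosen after the values had been seen. Krt18 counts per Krt8 count averaged 0.294 in vehicle and 0.427 at 30 µg/kg. The log2 ratio was −1.78 ± 0.24 (SD, n = 5) in vehicle and −1.24 ± 0.19 at 30 µg/kg, a difference of 0.54 by a two-sided exact permutation test with p = 0.0159. Over the 7 doses the adjusted exact p was 0.111, and 5 against 5 cannot give a p below 0.00794. The groups overlapped slightly, since the highest vehicle ratio was −1.41 and the lowest at 30 µg/kg was −1.44. At 10 µg/kg the difference was 0.36 (exact p = 0.0556).

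**Figure D3:**
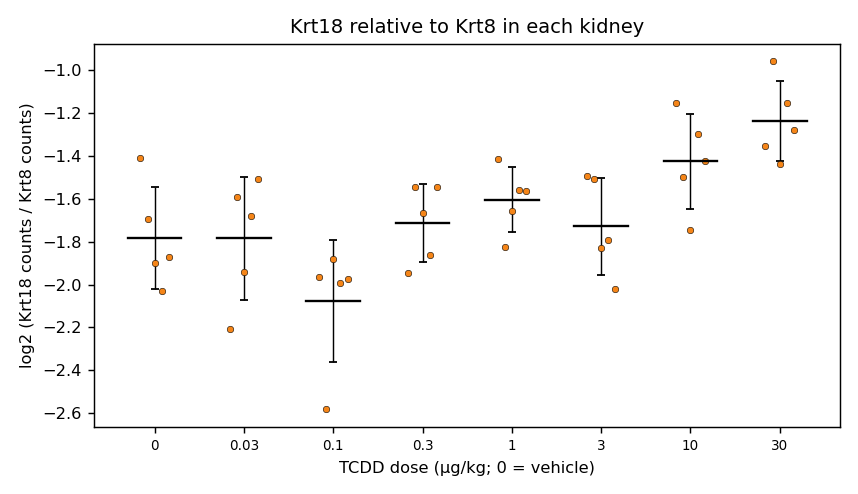
Log2 ratio of Krt18 to Krt8 counts (vertical axis) in each kidney by TCDD dose in µg/kg (horizontal axis, 0 is vehicle). Points are libraries, lines the mean of 5 and bars ± 1 SD. The mean goes from −1.78 in vehicle to −1.24 at 30 µg/kg, and the lowest single ratio is in replicate 2 of 0.1 µg/kg.

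The promoter windows of this pair, which lie on chromosome 15, are printed because 1 partner passed the test and the other did not. The Krt18 window, on the plus strand, holds the receptor core GCGTG at 143 and 61 bases upstream, in capitals. The Krt8 window, on the minus strand and read 5′ to 3′ along the gene, holds none. A window without these letters says nothing of the receptor elsewhere.
Krt18, chr15:102027966-102028215: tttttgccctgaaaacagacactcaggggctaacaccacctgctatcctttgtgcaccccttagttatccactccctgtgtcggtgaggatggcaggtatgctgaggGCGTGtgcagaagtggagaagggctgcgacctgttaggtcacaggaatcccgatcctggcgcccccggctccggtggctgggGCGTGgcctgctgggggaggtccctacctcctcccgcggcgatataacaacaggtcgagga
Krt8, chr15:102004343-102004592: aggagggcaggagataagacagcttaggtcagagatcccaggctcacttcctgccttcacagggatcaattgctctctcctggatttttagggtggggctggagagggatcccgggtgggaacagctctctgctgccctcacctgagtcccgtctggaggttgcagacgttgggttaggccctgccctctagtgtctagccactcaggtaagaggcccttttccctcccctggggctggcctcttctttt

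Krt20, a keratin of urothelial umbrella cells and of the gut that also appears in injured tubules, was rare and uneven. Vehicle levels were 0.230, 3.60, 1.55, 0.0657 and 0.227 CPM, where the 3 low libraries held 4, 1 and 4 counts. At 30 µg/kg all 5 libraries lay close together, at 1.99, 2.26, 2.85, 2.53 and 2.33 CPM, below vehicle replicate 2 and above the other vehicle libraries. The log2 difference was 1.04 ± 0.61 (edgeR adjusted p = 0.278), and 2.10 without vehicle replicate 2 (adjusted p = 0.0174). The slope over dose rank, 0.18 per step, passed narrowly (adjusted p = 0.0405) and was lost in 16 of the 40 omissions of a library (adjusted p up to 0.0784), including any 1 library of the top dose.

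Genes of the urothelium, the lining of the renal pelvis, moved with both Krt18 and Krt20. Over the 40 libraries the genes ranked most like Krt18 were Sprr1a (rho 0.775), the uroplakin gene Upk1b (0.763) and S100a6 (0.753). Those most like Krt20 were Ctse (0.751), Upk1b (0.738) and Upk3a (0.728). Of 9 urothelial markers tested, 5 rose at 30 µg/kg and none fell, beside 8.39% of all genes higher. The log2 fold change was 1.94 for Upk2, 1.37 for Upk1b, 1.29 for Upk1a and 0.92 for Upk3a. The urothelial list summed to 52.9 to 89.3 CPM in vehicle and 110 to 190 CPM at 30 µg/kg, without overlap. Krt13 was at 0 in both groups.

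The relation of Krt18 to urothelial markers, here as the mean log2 CPM of the 9 tested, also held within doses. With dose-group means removed, Pearson's r was 0.70 over 40 libraries (permutation p = 2e-05) and Spearman's rho 0.69 (p = 1e-05, the smallest that 100000 resamples can give). Adjusted over 90 relations of the 10 genes with 9 marker lists, computed after the data had been seen, these were 0.0018 and 0.0009, and no other relation passed. Without the 2 libraries farthest from the median r was 0.61, without the top dose 0.75, and with 1 library left out between 0.59 and 0.74. Krt20 and the same urothelial mean had r = 0.32 (permutation p = 0.071, adjusted 0.38). How much of the Krt18 level came from urothelium in the piece of tissue was not tested.

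**Figure D4:**
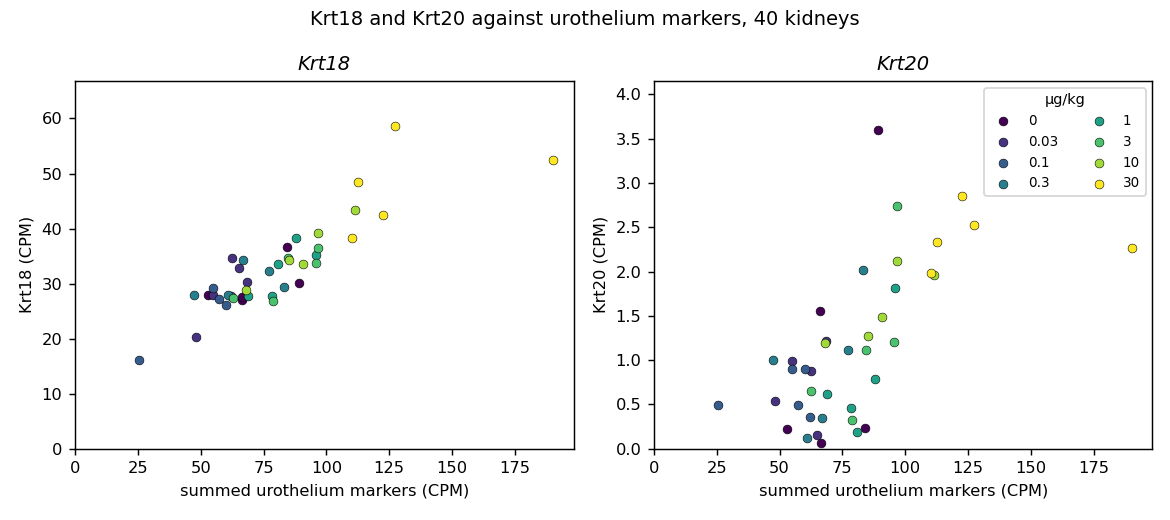
Krt18 (left) and Krt20 (right) in CPM (vertical axes) against the summed CPM of urothelial markers (horizontal axes) in 40 kidneys, coloured by TCDD dose in µg/kg. The 5 kidneys at 30 µg/kg have marker sums of 110 to 190 CPM and the highest Krt18 mean, and the library lowest in both Krt18 and the marker sum is replicate 2 of 0.1 µg/kg.

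Between mice of the same dose the 10 genes did not vary together in a way that passed a test. Of 45 pairs, none had an adjusted permutation p under 0.05, and the lowest was 0.28. Krt8 and Krt18 had r = 0.38 and rho = 0.32 over 40 libraries (permutation p = 0.019 and 0.065), and Havcr1 and Spp1 r = −0.47 and rho = −0.39 (permutation p = 0.013 and 0.034). Without the 2 farthest libraries r was 0.34 and −0.45.

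A wider list of 27 tested transcripts of injured tubules, which excludes the 10, had 7 that rose and none that fell at 30 µg/kg. Of all genes, 8.39% were higher and 7.55% lower there. At 10 µg/kg 2 of the list rose, beside 3.82% of all genes. The median at 30 µg/kg was 0.08 beside 0.01 over all genes. Besides Cd44, Prom1, a stem-cell surface protein of scattered tubule cells, rose by 0.72, Ccn2, the matrix growth factor CTGF, by 1.15, and Vim, the mesenchymal filament vimentin, by 0.51. The other 20 did not pass.

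**Figure D5:**
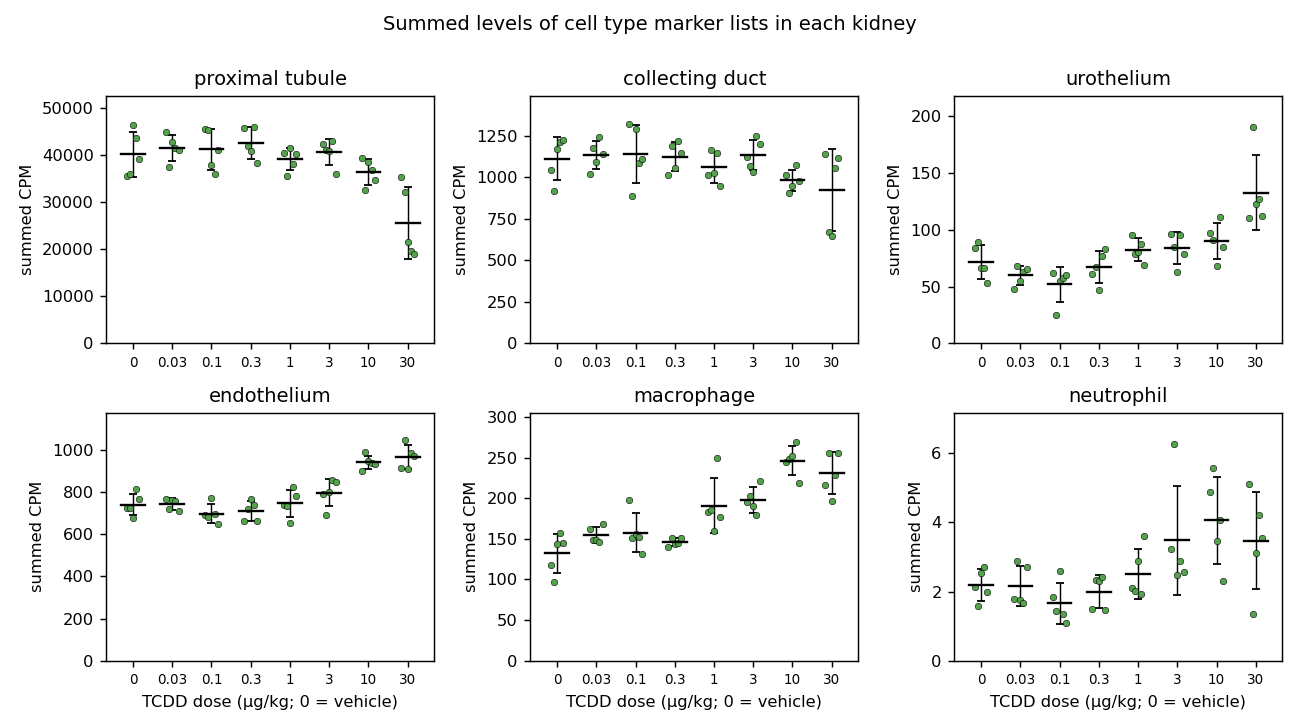
Summed CPM (vertical axes, starting at 0) of 6 cell type marker lists in each kidney by TCDD dose in µg/kg (horizontal axes, 0 is vehicle). Points are libraries, lines the mean of 5 and bars ± 1 SD. At 30 µg/kg the urothelial, endothelial and macrophage sums lie above the vehicle range in all 5 kidneys, and the proximal tubule sum, Kap included, lies below it.

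Ordered by vehicle level per kilobase of exon, Spp1 at 386 was followed by Clu at 98.2, Krt8 at 52.1, Krt18 at 20.8 and Cdkn1a at 2.76 CPM per kilobase, neighbours that differed by more than their SDs. The other 5 lay lower, with Vcam1 at 0.703 ± 0.0808, Lcn2 at 0.669 ± 0.276, Krt20 at 0.589 ± 0.779, Havcr1 at 0.534 ± 0.312 and Sox9 at 0.192 ± 0.149 (SD, n = 5). Vcam1, Lcn2, Krt20 and Havcr1 did not differ beyond their spread. Reads of either strand were counted together. Cdkn1a (7.68%), Krt8 (5.16%) and Vcam1 (0.688%) share exonic bases with models on the other strand, where reads could be left uncounted as ambiguous.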

How the data were processed

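The authors deposited whole-number read counts per gene for each of the 40 libraries, laid out as STAR writes them. The submitters' processing notes name FastQC 0.11.7, Trimmomatic 0.39, STAR 2.7.3a and DESeq2, and the builds GRCm39 and mm10, without roles. The annotation used for counting is not given in the sources used here. The unstranded column was used, since column 4 held 49.0 to 49.6% of the stranded counts. Lines naming no gene were left out. Per library, unmapped reads were 1.41 to 2.66%, multimapping 6.98 to 9.70%, in no feature 5.28 to 7.27% and ambiguous 5.40 to 5.98%.

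Identifiers were named with GENCODE M21. Tests used R 4.3.3 and edgeR 4.0.16: filterByExpr by group, TMM factors, robust quasi-likelihood fit to all 40 libraries, and Benjamini-Hochberg adjustment over all 17345 genes with a threshold of 0.05. Fold changes used a prior count of 0.125, log2 CPM for correlations a prior count of 2, and keratin ratios 0.5 added counts. The code was tested on simulated data. Each library is 1 mouse, and p-values set a difference against the spread between mice. In the main edgeR fit that spread was estimated over all 8 groups together. Counting precision covers counting error only. Alternatives were RLE size factors, DESeq2 1.42.0, no filter, column 4, no robust estimation, a covariate for kidney region, the 2 groups alone, a trend without an end group, and each library left out. The region covariate was the mean log2 CPM of collecting duct, thin limb and medulla markers minus that of proximal tubule markers. At 30 µg/kg 8 proximal tubule and 5 collecting duct markers fell, so the score can carry part of the dose response.

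The 10 genes and the lists were chosen with earlier results of these data known. Beyond the 10, up to 4 genes per list were named, those called at 30 µg/kg with the lowest p there (or, with none called, up to 2), and the 3 genes ranked most like each called gene, of which 1 is not reported here.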

Additional observations from a re-analysis of the deposited data

Results flagged for a closer look

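In 3 of the 80 groups of 5 libraries (10 genes at 8 doses) 1 library stood apart from the other 4 by a gap that took over 0.71 of the range. About 4 of 80 are due to chance alone. Krt18 in replicate 2 of 0.1 µg/kg was 16.1 CPM, and the next library of that dose was at 26.2 CPM. The same library was low in Cdkn1a, at 7.19 CPM with the next at 11.8 CPM, and had the lowest urothelial marker sum of the 40, 25.3 CPM. Cdkn1a in replicate 4 of 3 µg/kg was 23.5 CPM, and the next library of that dose was at 16.7 CPM.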

How the results depend on the processing

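No paired analysis was possible because the labels give no replicate numbers that groups share. The counts of the 10 called at 0.03, 0.1, 0.3, 10 and 30 µg/kg did not move by over 1.5 times under any alternative run. At 30 µg/kg the count of 6 became 5 in the 2 groups alone, without Clu. It ran from 6 to 8 over the omissions of 1 library, with Krt20 and Sox9 added without vehicle replicate 2. At 1 µg/kg the count of 1 became 0 with column 4, with the region covariate and in the 2 groups alone, and ran from 0 to 1 with 1 library left out. At 3 µg/kg the count of 0 became 1 without robust estimation, 1 in the 2 groups alone and 2 in DESeq2, and ran from 0 to 1 over omissions. Between 10 and 30 µg/kg the count of 1 became 0 in the 2 groups alone, where 0 of 15693 genes were called. It ran from 1 to 4 over omissions (4 without replicate 1 of 30 µg/kg, 2 without replicate 4 of 10 µg/kg). Along dose rank the count of 7 became 3 (Clu, Vcam1, Cdkn1a) without the top dose and ran from 6 to 7 over omissions. Without the top dose the slopes changed sign for Havcr1 (0.002 from −0.054), Spp1 (−0.002 from 0.044) and Krt8 (−0.008 from 0.009), none called there. The Krt20 slope lost its call with no filter (adjusted p = 0.0602 by edgeR) and with column 4 (0.143). The log2 difference of the keratin ratio ran from 0.48 to 0.64 over omissions (exact p from 0.0159 to 0.0317). The causes were not tested. Counts of Havcr1, Sox9 and Krt20 were low, and small changes in them were not detectable at this depth.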
